A study of Saccharomyces cerevisiae with 2 samples.

Results

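The genes described here encode the enzymes and regulators of amino acid biosynthesis and of sulfur assimilation in the yeast Saccharomyces cerevisiae. They were chosen by gene symbol: every symbol made of MET and a number, plus a list of named genes of the arginine, histidine, lysine, branched-chain, aromatic, aspartate, serine and sulfur pathways. In all, 59 of the 6207 genes on the array met this rule. Of these, 46 (78.0%) had a ratio on both arrays, against 2254 (36.3%) of all genes, and the other 13 had a ratio on neither.

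The study used a strain labelled msn2/4 mutant, which refers to MSN2 and MSN4, the genes of a pair of related activators of the general stress response; both conditions carried this genotype, and the alleles and the parent strain are not given in the sources used here. A culture grown in YEPD, a rich medium that supplies amino acids, was divided at 24 °C. The untreated portion grew on, the other received 5 units/ml of zymolyase 100T, an enzyme preparation that digests cell wall glucan, and cells were collected at 3 hours. Both RNAs were hybridised together to 2 two-colour DNA microarrays: on array 1 Cy5 marked the untreated RNA and Cy3 the zymolyase RNA, and on array 2 the labels were exchanged.

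According to the design text of the series 1 culture was used, so the arrays are a technical dye swap of a pair of extracts and count as 1 replicate (the samples' own descriptions mention more cultures for each condition). A test of zymolyase against untreated cells therefore cannot be made. Every value below is a log2 ratio, and every SD is over the 2 hybridisations (n = 2 arrays): it measures hybridisation and dye error, not the spread between cultures. Spot intensities are not part of the values used here, so the precision behind a ratio is unknown.

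Yeast makes all its amino acids from intermediates of central carbon metabolism. Many of these enzymes are under general amino acid control, in which the kinase Gcn2 senses uncharged transfer RNA and raises translation of the activator Gcn4. Sulfur enters by a separate route that reduces sulfate to sulfide, joins it to a homoserine derivative and leads to methionine, cysteine and S-adenosylmethionine; the activator Met4 controls most of that route. Genes of both systems are known to be expressed less when the medium supplies their end products.

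The direction of the ratios rests on cell wall genes. On a list of 17 targets of the cell wall integrity pathway, compiled with results of these arrays known, 16 had a ratio on both arrays. The deposited signs opposed each other in 15 of these, with array 1 positive, as an exchange of dyes gives for a difference between the RNAs. The sign of array 2 was therefore turned throughout, and positive values are likely zymolyase over untreated, because such genes are reported to be raised by zymolyase. Both steps are assumptions that these values do not settle; if untreated RNA is the numerator, all signs below reverse. The all-gene median, over the 2254 genes with both ratios, was -0.31 on array 1, -0.39 on array 2 after the turn and -0.37 for the mean of the arrays; it was 0.07 for the mean of the columns as deposited. MSN2 and MSN4 had no ratio on either array.

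With array 2 turned, amino acid biosynthesis genes showed no common difference between the RNAs on both arrays; with array 2 as deposited, which the assumed turn sets aside, 10 of 46 were positive and none negative, as described further on. A gene was counted when its arrays agreed in sign and their mean reached 2-fold, which is 1 in log2 units. None of the 46 genes was counted as positive, where 2.88% of all genes were. As negative, 5 were counted (10.9%), where 13.6% of all genes were: LYS9, MET7, CPA1, SER3 and MET5. None of the 5 was 2-fold on each array. The median of the mean ratio was -0.38, against -0.37 over all genes, so the members as a set lay at the middle of the array. Another 3, HIS4, SAM1 and MET12, had a mean past 2-fold with opposite signs on the arrays (6.52%, against 6.21% of all genes). After each array was centred on its median, LEU4 was counted as positive (2.17%, against 4.97%) and LYS9 and MET7 as negative (4.35%, against 7.63%).

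The 2 arrays placed the same genes on opposite sides of that middle. On array 1 the members' median was 0.18, which is 0.48 above the all-gene median, and 31 of 46 lay above it. With the sign of array 2 turned their median there was -0.72, which is 0.34 below the all-gene median, and 14 of 46 lay above it. The combination of a position above the median on array 1 and below it on array 2 was held by 25 genes (54.3%), against 32.6% of all genes. In terms of the columns as deposited, 25 of 46 members were positive in both (54.3%, against 34.0% of all genes) and 2, ILV6 and MET30, were negative in both (4.35%, against 26.3%). If the turn is right, in such genes the part shared by both columns is larger than the difference between the RNAs. The mean after the turn could still pass 2-fold in such genes, though with opposite signs on the arrays. It was -1.16 ± 1.64 for HIS4, -1.01 ± 2.26 for SAM1 and -1.34 ± 2.43 for MET12. HIS4 was at 0.0003 on array 1, so its mean came from array 2. What the shared part stems from was not tested. On the same side of the median on both arrays were 6 members above it (13.0%, against 17.4%), namely CYS3, ILV1, LEU4, MET3, MET4 and TRP4, and 7 below it (15.2%, against 17.4%), namely ARO2, LYS1, LYS9, LYS12, MET7, MET18 and MET22.

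**Figure D1:**
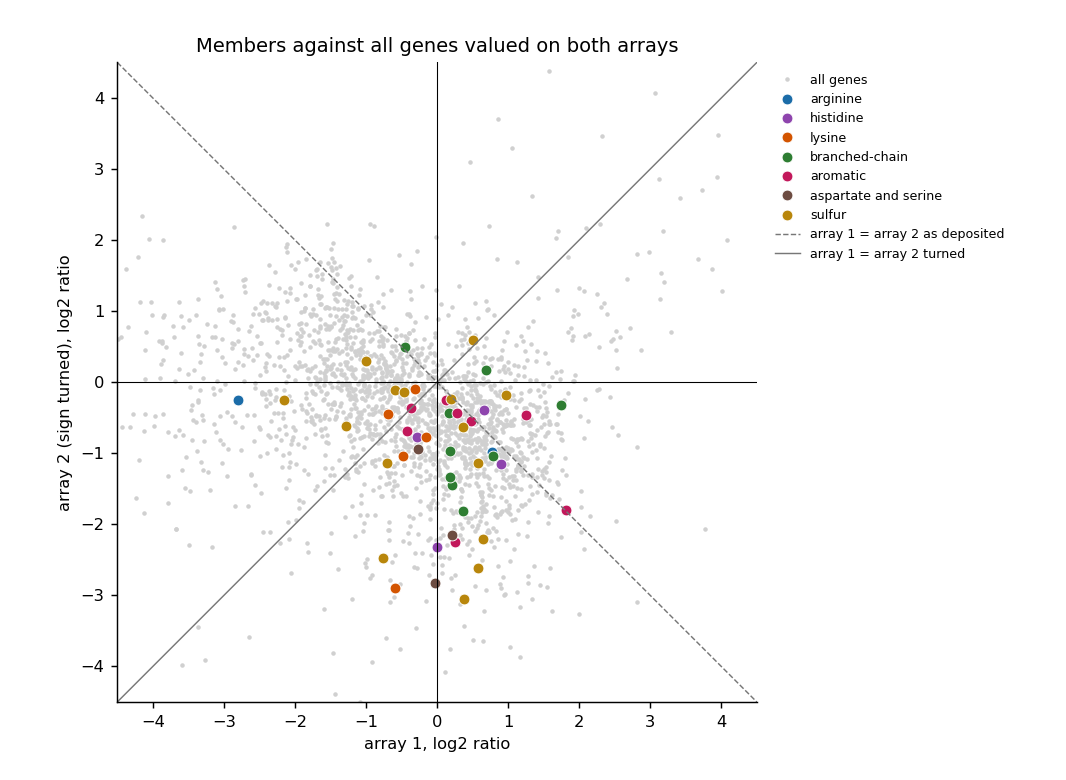
Log2 ratio on array 1 (horizontal axis) against array 2 with its sign turned (vertical axis) for 2254 genes (grey) and the 46 members (coloured by pathway); 67 genes lie outside the axes. The solid diagonal is equality after the turn and the dashed one equality as deposited. Most members sit at the lower right, along the dashed line, and 17 sit at the lower left, negative on both arrays.

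After the turn, 17 members (37.0%, against 31.9% of all genes) were negative on both arrays and 2, CYS3 and ILV1, were positive on both (4.35%, against 7.85%). The mean exceeded its own SD in 14 members on the negative side (30.4%, against 22.4% of all genes) and in CYS3 and ILV1 on the positive side (4.35%, against 6.57%). Pathways differed in which pattern they held: all 5 valued lysine genes were negative on both arrays, whereas 8 of 9 branched-chain genes had opposite signs. Opposite signs were the commoner state, held by 27 of the 46 members (58.7%) and by 60.2% of all genes. These are counts within 1 pair of RNA extracts, and the difference between the pathways was not tested.

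**Figure D2:**
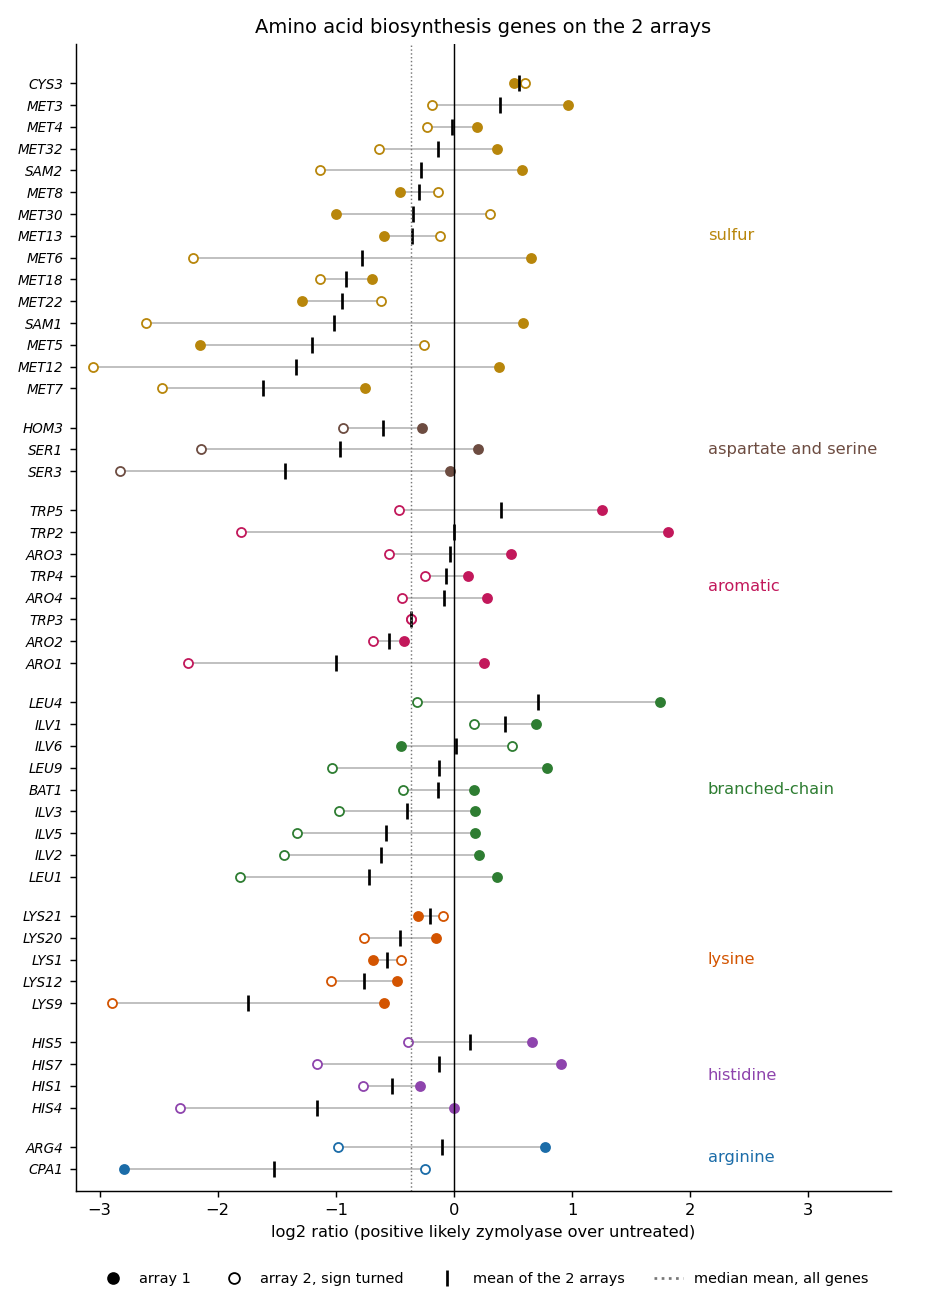
Log2 ratio of each of the 46 members on array 1 (filled circle) and on array 2 with its sign turned (open circle), joined by a line, with the mean of the arrays as a tick and the all-gene median of -0.37 as a dotted line. Lysine genes have both circles left of 0, and in 36 of the 46 members (78.3%, against 52.3% of all genes) the open circle lies left of the filled one.

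Lysine biosynthesis in yeast runs through alpha-aminoadipate, beginning with homocitrate synthase, which is encoded by LYS20 and LYS21. LYS20 was -0.15 on array 1 and -0.77 on array 2, a mean of -0.46 ± 0.43. LYS21 was -0.31 and -0.09, a mean of -0.20 ± 0.15. The paralogs are close in sequence, so each probe may also have bound cDNA of the other gene.

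The valued members of the later lysine steps had lower means. LYS12, homoisocitrate dehydrogenase, had -0.48 and -1.04 (mean -0.76 ± 0.39). LYS9, saccharopine reductase, had the lowest mean of all 46 members, -1.74 ± 1.63 or 3.35-fold lower, from -0.59 on array 1 and -2.90 on array 2. LYS1, which makes lysine from saccharopine, had -0.69 and -0.45 (mean -0.57 ± 0.17). LYS4, homoaconitase, had no ratio. Every valued lysine gene was thus below 0 on each array. In 4 of the 5, all but LYS9, the arrays differed by at most 1, as they did in 20 of the 46 members. The share over all genes is not given here, so that closeness cannot be read as particular to lysine. Against each array's own median the picture was weaker: LYS1, LYS9 and LYS12 lay below it on both arrays, LYS20 below it on array 2 alone, and LYS21 below it on array 1 alone. The lysine median was -0.57, which is 0.20 below the all-gene median. LYS2, the aminoadipate reductase, which was not among the members, had opposite signs, 0.45 and -0.92. Its mean of -0.24 ± 0.97 was higher than that of LYS20.

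In arginine biosynthesis 2 of 5 members had a ratio. CPA1, the small subunit of the carbamoyl phosphate synthetase that serves arginine, had -2.80 on array 1 and -0.25 on array 2, a mean of -1.52 ± 1.80 (2.87-fold lower). Its count as negative rested on array 1, since on array 2 it lay above the all-gene median. ARG4, argininosuccinate lyase, had 0.77 and -0.98, a mean of -0.10 ± 1.24, so its arrays opposed each other. ARG1, ARG3 and ARG8 had no ratio on either array. Other arginine genes were as thinly covered: ARG2, the acetylglutamate synthase of the first step, had -2.46 and -0.14 (mean -1.30 ± 1.64), and the gene listed as ARG56, whose product is processed into the enzymes of the next steps, had -0.71 and 0.18. With so few genes a pathway level cannot be given for arginine.

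All 4 histidine members had a ratio on both arrays. HIS4, a multifunctional enzyme of the pathway, had 0.0003 on array 1 and -2.32 on array 2; its mean of -1.16 ± 1.64 passed 2-fold without agreement in sign. HIS1, the ATP phosphoribosyltransferase of the first step, had -0.29 and -0.77 (mean -0.53 ± 0.34) and was the histidine member with the same sign on both. HIS7, imidazole glycerol phosphate synthase, had 0.90 and -1.16, and HIS5, histidinol-phosphate aminotransferase, had 0.66 and -0.39. These last values nearly cancel, with means of -0.13 ± 1.46 and 0.13 ± 0.75. On array 1 all 4 histidine genes lay above the all-gene median and on array 2 none did. The margins were small for HIS1 on array 1 (0.018) and for HIS5 on array 2 (-0.0057). HIS6, outside the members, was counted as negative, at -1.66 and -0.47 (mean -1.06 ± 0.84).

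Branched-chain synthesis makes isoleucine, valine and leucine with enzymes that are largely shared. ILV1, threonine deaminase, which commits threonine to isoleucine, was positive on both arrays, 0.69 and 0.17, with a mean of 0.43 ± 0.37. The next steps did not follow it. ILV2, the catalytic subunit of acetolactate synthase, had 0.21 and -1.44 (mean -0.62 ± 1.17), whereas ILV6, its regulatory subunit, had -0.45 and 0.49 (mean 0.02 ± 0.67). The subunits of this enzyme thus had opposite signs on each array. ILV5, the reductoisomerase, had 0.18 and -1.33, and ILV3, the dihydroxyacid dehydratase, had 0.18 and -0.97. BAT1, the mitochondrial aminotransferase, had smaller ratios, 0.17 and -0.43.

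On the leucine branch LEU4, the main alpha-isopropylmalate synthase, had the highest mean of all 46 members, 0.71 ± 1.46, but from 1.74 on array 1 and -0.32 on array 2. Its paralog LEU9 had 0.79 and -1.04 (mean -0.12 ± 1.29). LEU4 was higher than LEU9 on both arrays, by 0.95 and 0.72, although the signs of each gene opposed. LEU1, isopropylmalate isomerase, had 0.36 and -1.81, a mean of -0.72 ± 1.54. Over the 9 branched-chain genes the medians were 0.21 on array 1, -0.97 on array 2 and -0.13 for the mean ratio, and the range of means from -0.72 to 0.71 was within the SDs of the genes at its ends.

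Aromatic synthesis starts with the DAHP synthases ARO3 and ARO4. ARO3 had 0.48 and -0.55 and ARO4 0.28 and -0.44, with means of -0.03 ± 0.73 and -0.08 ± 0.51, so the pair gave nearly the same ratios on each array. ARO1, the pentafunctional enzyme of the middle of the pathway and the longest member at 4767 bp of coding length, had 0.26 and -2.25, a mean of -0.998 ± 1.77. ARO2, chorismate synthase, was negative on both arrays, at -0.42 and -0.68 (mean -0.55 ± 0.19).

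In the tryptophan branch TRP2, anthranilate synthase, had 1.81 on array 1 and -1.80 on array 2. These opposed values left a mean of 0.0031 ± 2.55, the largest SD among the 46 members. TRP3, whose product is the partner subunit of Trp2 and also indole-glycerol-phosphate synthase, behaved unlike it, with -0.37 on each array. TRP4, the next enzyme, had 0.12 and -0.25, and TRP5, tryptophan synthase, had 1.26 and -0.47 (mean 0.39 ± 1.22). TYR1 and ARO9, enzymes of tyrosine synthesis and of aromatic transamination that were not among the members, were positive on both arrays with means of 0.68 ± 0.65 and 0.55 ± 0.52. ARO8, another aromatic aminotransferase, had 1.19 and -1.50.

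Aspartate and serine supply carbon to the threonine, methionine and cysteine branches. HOM3, aspartate kinase, was negative on both arrays, -0.27 and -0.94 (mean -0.60 ± 0.47), and HOM2 had no ratio. In serine synthesis from 3-phosphoglycerate, SER3, the dehydrogenase of the first step, had -0.03 and -2.83, a mean of -1.43 ± 1.98 (2.69-fold lower). SER1, the aminotransferase after it, had 0.21 and -2.14 (mean -0.97 ± 1.66). Both therefore owed their low means to array 2. SER2, the phosphatase of the last step and not a member, owed its count as negative to array 1 instead, at -1.92 and -0.32 (mean -1.12 ± 1.13). SER33, the paralog of SER3, had 0.76 and -0.84 and a mean of -0.04 ± 1.13, and SER3 minus SER33 was -0.79 on array 1 and -1.99 on array 2.

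The sulfur genes had many gaps: 15 of 23 had a ratio on both arrays and 8 on neither. In sulfate assimilation 4 of 8 were valued. MET3, the ATP sulfurylase that activates sulfate, had 0.97 and -0.19 (mean 0.39 ± 0.82). MET14 and MET16, the kinase and the reductase that follow, had no ratio. Of the sulfite reductase subunits MET5 was counted as negative, with -2.15 and -0.25 (mean -1.20 ± 1.34, 2.30-fold lower, carried by array 1), and MET10 had no ratio. MET22, the phosphatase that removes the nucleotide left over from sulfate reduction, was negative on both arrays, -1.28 and -0.62, with a mean of -0.95 ± 0.47, and it lay below the all-gene median on each. MET8, of synthesis of the siroheme cofactor of sulfite reductase, had -0.46 and -0.14, and MET1, of the same synthesis, had no ratio. MET2 and MET17, which make O-acetylhomoserine and join it to sulfide, had no ratio either, nor did the sulfate transporters SUL1 and SUL2, which were not members.

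Among the genes of methyl transfer the arrays differed most for MET6 and MET12. MET6, cobalamin-independent methionine synthase, had 0.65 and -2.21 (mean -0.78 ± 2.02). Its methyl donor comes from methylenetetrahydrofolate reductase, for which yeast has the genes MET12 and MET13. MET12 had 0.38 and -3.05, the lowest value of any member on array 2, and a mean of -1.34 ± 2.43. MET13 had -0.59 and -0.12, a mean of -0.35 ± 0.34, so on array 1 MET12 was the higher of the pair and on array 2 the lower. MET7, folylpolyglutamate synthetase, which lengthens the glutamate tail of folates, had -0.76 and -2.47. Its mean of -1.61 ± 1.21 (3.06-fold lower) exceeded its SD, which among the 5 genes counted as negative held for LYS9 and MET7 and not for CPA1, SER3 and MET5.

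S-adenosylmethionine synthetase is encoded by SAM1 and SAM2, which are close paralogs. On array 1 they gave the same value to the second decimal, 0.58. On array 2 they did not, with -2.61 for SAM1 and -1.13 for SAM2, and the means were -1.01 ± 2.26 and -0.28 ± 1.21. CYS3, cystathionine gamma-lyase, makes cysteine from cystathionine. Among the 15 sulfur members with a ratio it alone was positive on both arrays, with 0.51 and 0.60. Its mean was 0.55 ± 0.06, or 1.47-fold, and it exceeded the all-gene median by 0.92. CYS4, the enzyme before it and not a member, had 0.69 and -1.98.

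The 3 valued regulators of the sulfur pathway had means between -0.35 and -0.02, above the all-gene median. MET4, the activator, had 0.20 and -0.23 (mean -0.02 ± 0.30). MET32, a DNA-binding cofactor of Met4, had 0.37 and -0.63, and MET30, the F-box protein that directs ubiquitination of Met4, had -0.997 and 0.30. MET28 and MET31 had no ratio. MET18 shares the symbol but encodes a factor of iron-sulfur cluster assembly; it was negative on both arrays, -0.70 and -1.13 (mean -0.91 ± 0.31). Among 9 regulators of amino acid synthesis outside the members, GCN4 was the one with a ratio, 1.05 and -0.56 (mean 0.24 ± 1.14). Transcript level says little of Gcn4 activity, which is known to be set mainly by translation.

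**Figure D3:**
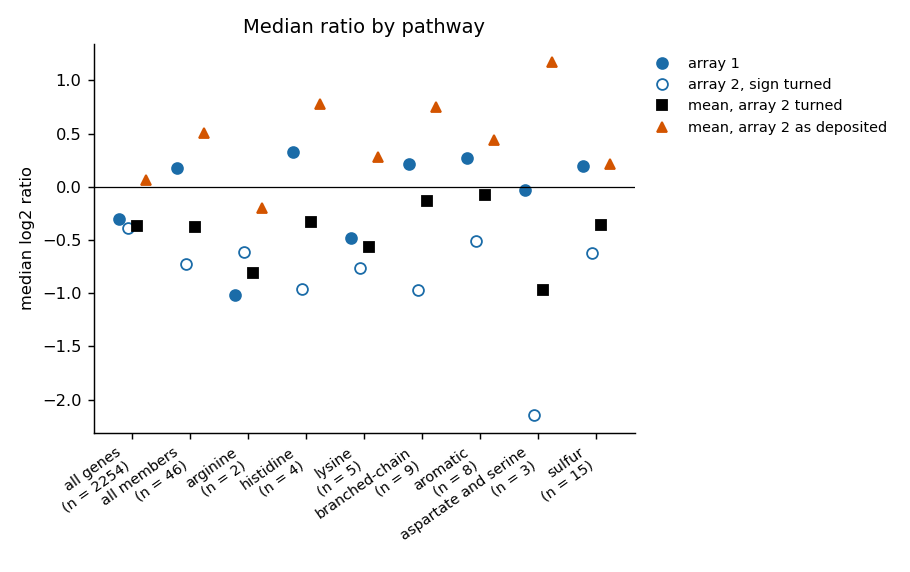
Median log2 ratio over all genes, all members and each pathway (n genes valued on both arrays) on array 1, on array 2 with its sign turned, for the mean of the arrays after the turn and for the mean as deposited. The array 1 and array 2 medians of all genes nearly coincide (-0.31 and -0.39), those of the branched-chain genes lie apart at 0.21 and -0.97, and lysine is negative on both at -0.48 and -0.77.

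Set side by side, the medians of the mean ratio ran from aromatic (-0.07) and branched-chain (-0.13) through histidine (-0.33), sulfur (-0.35) and lysine (-0.57) to arginine (-0.81, 2 genes) and aspartate and serine (-0.97, 3 genes). Aromatic, branched-chain and histidine had medians above 0 on array 1 and below 0 on array 2, and so did sulfur (0.20 and -0.62). The spread between the array medians was an SD of 0.55 for aromatic, 0.83 for branched-chain, 0.91 for histidine and 0.58 for sulfur. Over all genes it was 0.06. The pathways were measured on the same arrays, so their spreads are not independent, and the cause of the spreads was not tested. Aromatic lay above branched-chain and above sulfur on each array, whereas branched-chain lay above sulfur on array 1 and below it on array 2; no gap between pathways was tested. The array medians were negative on both arrays for 3 groups. They were -0.48 and -0.77 for lysine (SD 0.20), -1.01 and -0.61 for arginine, from a pair of genes of which ARG4 was above 0 on array 1, and -0.03 and -2.14 for aspartate and serine (SD 1.49). The last group's low place thus rested on array 2, since on array 1 it lay above the all-gene median.

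The mean of the columns as deposited, with array 2 not turned, describes what the arrays have in common before the exchange of dyes is taken into account. By the same 2-fold rule 10 of 46 members were positive there (21.7%, against 12.3% of all genes) and none was negative (against 13.7%). The 10 were TRP2 (1.81), MET12 (1.72), SAM1 (1.60), MET6 (1.43), ARO1 (1.25), SER1 (1.18), HIS4 (1.16), LEU1 (1.09), HIS7 (1.03) and LEU4 (1.03). They come from 5 of the 7 groups, none from lysine or arginine. SER3 (1.40), LYS9 (1.15) and CPA1 (-1.27) had means past 2-fold but opposite signs in the columns, and were not counted. Arginine had only 2 valued genes. The members' median was 0.51, against 0.07 over all genes. After centring, 9 were positive (19.6%, against 11.6%) and CPA1 was negative (2.17%, against 16.3%). Of the 10, 8 were among these 9; HIS7 and LEU4 were not, and SER3, counted as negative after the turn, was. Were array 2 deposited with its sign already turned, these would be the values of the contrast.

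Coding length moved with this shared component. Over 2174 genes with an annotated coding length, Spearman's rho between length and the mean as deposited was 0.46, and between length and the mean after the turn 0.03. Over the 46 members the values were 0.33 and -0.19. Genes on 1 array share dye, labelling and scanner, so these are descriptions across genes and not tests. The members' median coding length was 1401 bp, against 1254 bp over all genes. Between the members' quartiles of length, 1150 and 1849 bp, the median as deposited was 0.58 for 22 members and 0.46 for 687 other genes, and after the turn it was -0.32 for each. The part of length in the members' shared component was not tested beyond these values.

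**Figure D4:**
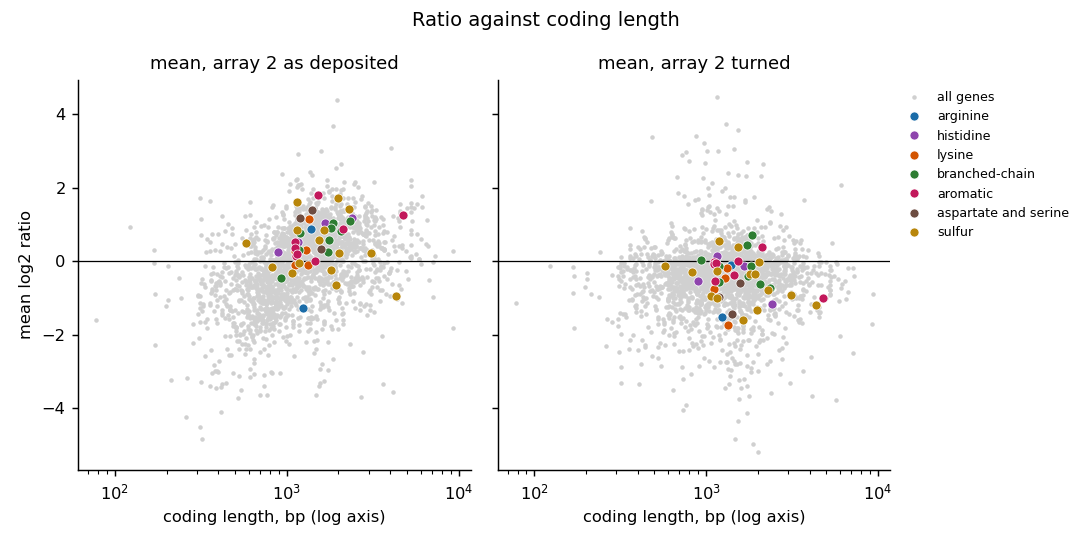
Mean log2 ratio against coding length in bp (log axis) for genes with a ratio on both arrays (grey) and members (coloured by pathway), with array 2 as deposited on the left and with its sign turned on the right. On the left longer genes lie higher (rho = 0.46 over 2174 genes), and most members lie in the upper middle; on the right length and ratio show little relation (rho = 0.03).

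Of 41 further enzymes and transporters of the same pathways and of glutamate and proline synthesis, 28 had a ratio on both arrays. Counted as negative were 3, ARG2, HIS6 and SER2 (10.7%, against 13.6% of all genes), and none was counted as positive (against 2.88%). The median of the 28 was -0.27, from 0.30 on array 1 and -0.67 on array 2. As deposited, 6 of the 28 were positive past 2-fold (21.4%, against 12.3% of all genes) and none negative. The members' own pathways supplied ARO8, CYS4 and SAH1. The others, GDH1, GLN1 and PRO2, came from glutamate and proline synthesis, where 3 of 5 valued genes were positive in this way. GDH1 and GLN1, which assimilate ammonium into glutamate and glutamine, had -2.22 and -2.23 on array 2 and 0.26 and 0.45 on array 1. The lists were compiled with earlier results of these arrays known.

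Genes of these pathways also serve as selection markers in laboratory strains, and their state in the mutant is not given in the labels. URA3 and MET17 had no ratio on either array and HIS3 had one on array 2 alone (0.61). LEU2 had -0.82 and 0.21, TRP1 -1.36 and -0.11, LYS2 0.45 and -0.92 and ADE2 0.88 and -1.85. Both channels held RNA of the same strain, so a ratio does not show whether such a gene was intact.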

How the data were processed

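Two-colour microarrays compared RNA of zymolyase-treated and untreated cells of an msn2/4 mutant on 2 arrays with exchanged dyes. The authors deposited 1 log2 ratio per gene and array; for its numerator, centring, background correction, normalization and filter the sources used here give nothing. The log base was read from the values: all 387 array 1 values below -2, and all 239 on array 2 after its sign was turned, were the log2 of a whole multiple of 0.0001, within rounding to 4 decimals. The median of the deposited values was -0.38 on array 1 (2428 genes) and 0.40 on array 2 (2918 genes).

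Of 6209 rows, 2 control spots were left out. Symbols and coding lengths were looked up by locus tag in RefSeq's gene table (assembly R64), where 5654 of 6207 names matched. Coordinates are left out because the build of the probes is unknown here. After array 2 was turned, each gene's mean and SD over the arrays were computed without recentring. The call rule was checked on simulated data in which the exchange of dyes was built in. That check therefore cannot show whether the turn is right for these arrays. Python 3.11.15, pandas 2.3.3 and matplotlib 3.10.9 were used. Every member may be named, as may the other pathway genes, regulators and marker genes listed. Members, lists and the turn were chosen with earlier results of these data known. Further genes of the pathways were left out of the lists or are given only in the counts. A search of promoters for motifs was foreseen and not run. Alternatives were array 2 as deposited, centring, other fold limits, each array alone, agreeing genes alone and the mean in place of the median.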

Additional observations from a re-analysis of the deposited data

How the results depend on the processing

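The counts of members were 0 positive and 5 negative. They were 10 and 0 with array 2 as deposited, 1 (LEU4) and 2 (LYS9 and MET7, both among the 5) after centring each array, 0 and 9 at 1.5-fold and 0 and 0 with 2-fold on each array. From 1 array alone they ranged from 0 to 3 positive and from 3 to 18 negative. For the 1.5-fold, each-array and single-array rules the share over all genes is not given here. Those counts therefore cannot be read as particular to the members. As deposited and centred they were 9 and 1, the latter CPA1.

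With array 2 as deposited the median changed sign for all members (0.51), histidine (0.78), lysine (0.28), branched-chain (0.75), aromatic (0.44), aspartate and serine (1.18) and sulfur (0.22), and it was -0.20 for arginine; SER3 (1.40), LYS9 (1.15) and MET7 (0.86) changed sign too. Centring gave 0.019 for histidine, 0.21 for branched-chain and 0.27 for aromatic, all negative without it, and -0.47 for arginine and -0.22 for lysine. From array 2 and array 1 alone the medians were -0.72 and 0.18 for all members, -0.96 and 0.33 for histidine, -0.97 and 0.21 for branched-chain, -0.51 and 0.27 for aromatic and -0.62 and 0.20 for sulfur. Over the 3 branched-chain genes whose arrays differed by at most 1 it was 0.020. The cause was not tested. No arginine gene agreed that closely, so that alternative gave no value there. The restriction by coding length was chosen after seeing the data. No paired analysis was possible because the 2 arrays hold the same pair of extracts and form 1 group.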
